A study of Mus musculus with 10 samples.

Results

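Aminoacyl-tRNA synthetases were followed through the response of mouse primary lymphatic endothelial cells to a small interfering RNA (siRNA) against Vegfr2. The members were taken by symbol: every row of the deposited table named as a synthetase gene, together with Aimp1, Aimp2 and Eef1e1, which encode the scaffold proteins of the multisynthetase complex. This rule found 41 of the 16251 genes in the table, namely 21 genes of cytosolic enzymes, 17 of mitochondrial enzymes and 3 of scaffold proteins. The symbol ending in 2 marks a mitochondrial enzyme except in Tarsl2, a cytosolic threonyl-tRNA synthetase, and Aimp2, a scaffold gene, which were placed by their known location. All 41 passed the filter on low counts.

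Messenger RNA was sequenced from 10 libraries. In 5 of them, labelled Vegfr2 siRNA, the cells had been transfected with 50 nM of siRNA against Vegfr2, the receptor for vascular endothelial growth factor encoded by Kdr, and the other 5 were labelled control. RNA was taken at 48 h in both groups. Both groups bear the tag siRNA knockdown under treatment, the controls with the genotype Control, and no control siRNA is named, so whether the controls received a transfection of their own is not given. No label says whether the 5 replicates of a group were separate cultures. The p-values set the difference between the groups against the spread among these samples, and that spread may be technical.

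An aminoacyl-tRNA synthetase joins an amino acid to its matching tRNA, the step at which the genetic code is read, and most amino acids have an enzyme of their own. Cytosolic and mitochondrial translation use separate tRNAs, and most amino acids are served by separate nuclear genes for the cytosol and for the mitochondrion. Several cytosolic enzymes sit together in the multisynthetase complex, which AIMP1, AIMP2 and the protein of Eef1e1 hold in place. Many cytosolic synthetase genes are known targets of ATF4, the transcription factor made when the kinase GCN2 senses uncharged tRNA, and of MYC. Endothelial cells depend on charged tRNA for protein synthesis as all cells do, and some synthetases are also known for roles in vessel growth outside translation.

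Levels are given as CPM, the count scaled to the TMM-adjusted size of its library, and changes as log2 fold changes of siRNA over control from edgeR's quasi-likelihood test, with adjusted p-values over the 12161 genes tested. A gene is said to rise or fall where its adjusted p was under 0.05. The libraries held 17946483 to 18239260 estimated counts, so a member at 100 CPM rested on many counts, while the lowest member, Ears2, had 46.2 estimated counts in its lowest library. The targeted gene was lower in every siRNA library: Kdr lay between 1259 and 1431 CPM in control and between 167 and 200 CPM in siRNA libraries (log2 fold change -2.83, exact two-sided permutation p = 0.00794, the smallest that 252 assignments can give). Over all tested genes 36.1% rose and 35.2% fell. Of the endothelial markers, 5 of 6 fell and 1 was not called, and of the lymphatic markers 6 of 7 fell while Pdpn rose. The summed level of the lymphatic markers went from between 16374 and 17934 CPM to between 11074 and 12025 CPM. Of 4 tested markers of blood vessel endothelium 3 fell and 1 was not called. The 5 genes of that list, 1 of them under the filter, summed to 457 to 497 CPM in control and 248 to 267 CPM in siRNA libraries. Markers of fibroblasts and mural cells summed to 11.4 to 15.4 CPM in control and 12.0 to 14.0 CPM in siRNA libraries, with Lum and Rgs5 at or near 0 in each library. Within that list Acta2 rose by 0.62 (adjusted p = 7.5e-06), Pdgfrb (-0.41) and Notch3 (-0.57) fell, and Pdgfra, under the filter, was at 0.0558 and 0.494 CPM. Myeloid markers, mostly Cd68, summed to 51.4 to 59.9 CPM and 37.1 to 48.7 CPM. Epithelial markers summed to 1.22 to 2.46 CPM and 7.68 to 8.73 CPM, nearly all from Krt18, while Krt8 and Cdh1 were at or near 0. The part of these markers in the results on synthetase genes was not tested, and in bulk RNA a change in the make-up of the cells and a change in RNA per cell cannot be told apart.

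Synthetase transcripts were for the most part higher in the siRNA libraries. Of the 41 members 32 rose, 4 fell and 5 were not called, beside the shares of 36.1% and 35.2% among all tested genes. The median log2 fold change was 0.38 for the members, beside -0.0019 over all tested genes, whose median change in either direction was 0.22. Most single changes were modest. The siRNA libraries all lay above the control libraries for 29 members and all below them for 4, against 28.8% and 28.2% of all tested genes. When a fold of more than 1.5 was asked of the test, 4 members passed upward (Eef1e1, Ears2, Cars and Mars) and 0 downward, where 3.68% of all tested genes passed upward and 4.88% downward.

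**Figure D1:**
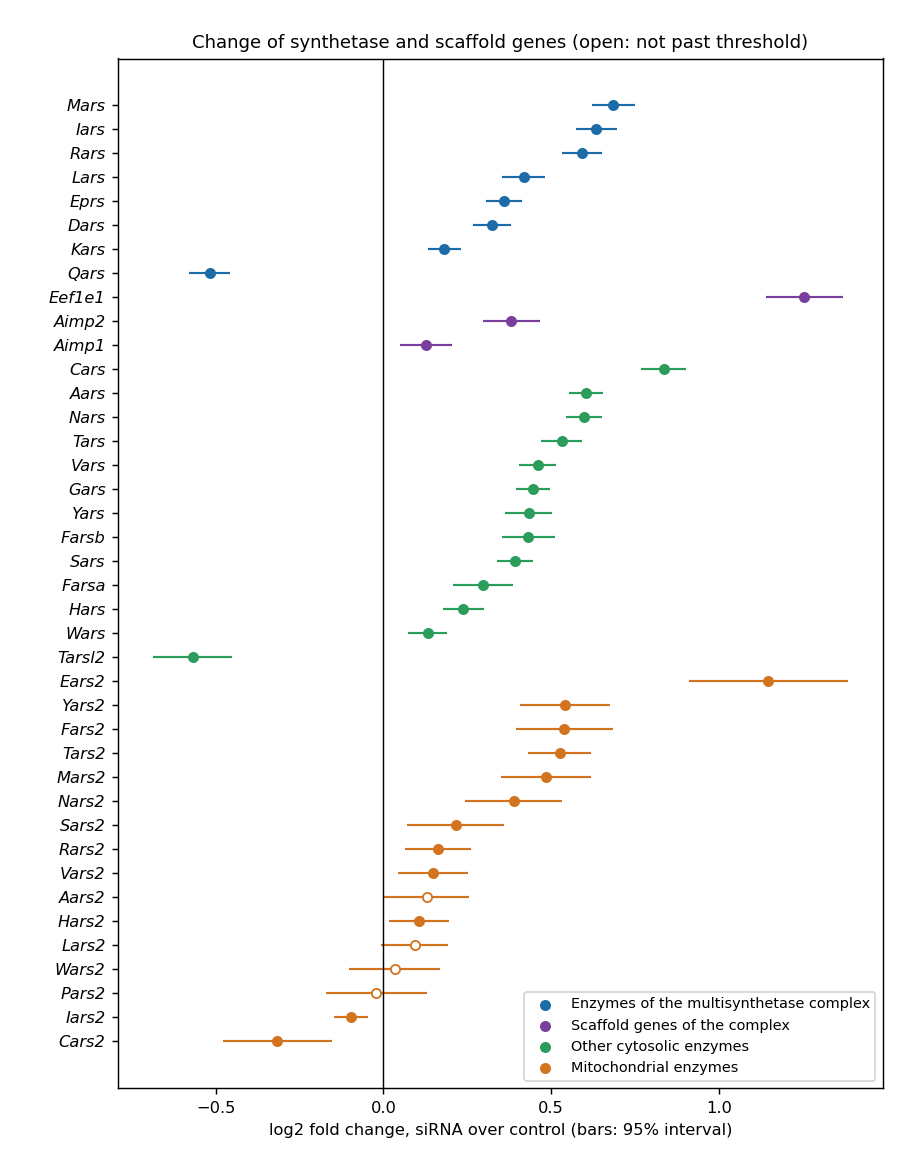
Log2 fold change of synthetase and scaffold genes, siRNA over control, each with its 95% interval, grouped as enzymes of the multisynthetase complex, scaffold genes, other cytosolic enzymes and mitochondrial enzymes; open points did not pass the threshold. The cytosolic points lie right of 0 apart from Qars and Tarsl2, and the open points are all mitochondrial.

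Nearly all cytosolic enzyme genes were higher in the siRNA libraries. Of their 21 genes 19 rose and 2 fell, with a median log2 fold change of 0.43, and summed over the 21 genes the level went from 2327 ± 38.2 CPM to 3086 ± 73.1 CPM (SD, n = 5 each), or 1.33-fold. Of the 17 mitochondrial enzymes 10 rose, 2 fell and 5 were not called, with a median of 0.15, and their sum went from 477 ± 9.95 CPM to 504 ± 8.21 CPM, or 1.06-fold. Iars2, which fell, made up 49.4% of that sum in control, and without it the sum went from 241 ± 5.61 CPM to 284 ± 2.82 CPM. The difference between these compartments is given as counts and medians and was not tested as a set. The literal reading of the symbols, with Tarsl2 and Aimp2 counted among 19 genes ending in 2, gave 11 higher, 3 lower and 5 not called, with the same median of 0.15.

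Sequence before the start site was examined because ATF4 and MYC are known to act on these promoters. RefSeq windows on GRCm38.p6, from 250 bases before to 50 after the start, were available for 31 of the 41 members (33 windows). The word TGATGNAA, the form of the C/EBP-ATF response element known for ATF4, was searched on both strands and lay in 5 of the 31 members: Aars, Gars, Iars, Tars and Yars. All 5 are cytosolic, from 14 cytosolic enzymes with a window, and 0 of 14 mitochondrial enzymes held the word. Among all windows, 3.97% of 32851 held it, or 4.51% of 27025 genes. For each gene the match nearest its start site is shown with 11 bases on each side, read on the strand that gives TGATGNAA, with the matched word in capitals. The start site is that of the window, which for Aars and Yars lies inside the span that RefSeq gives the whole gene and for Gars, Iars and Tars at its 5′ end. The words are set under each other so that the bases shared around them can be seen.
Aars, starting 9 bases after the start site (chr8:111033840-111033869, minus strand): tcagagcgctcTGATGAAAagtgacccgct
Gars, starting 30 bases before the start site (chr6:55037960-55037989, minus strand): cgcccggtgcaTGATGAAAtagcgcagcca
Iars, starting 7 bases after the start site (chr13:49682126-49682155, minus strand): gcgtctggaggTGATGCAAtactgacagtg
Tars, starting 15 bases before the start site (chr15:11399655-11399684, plus strand): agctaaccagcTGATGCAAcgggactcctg
Yars, starting 3 bases after the start site (chr4:129189895-129189924, plus strand): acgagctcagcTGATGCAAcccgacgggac

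All 5 of these genes rose, by 0.60 (Aars), 0.45 (Gars), 0.63 (Iars), 0.53 (Tars) and 0.43 (Yars) on the log2 scale. Cytosolic genes without the word in their window rose as well, among them Mars (0.69) and Eprs (0.36), and so did the scaffold gene Eef1e1 (1.254). Qars (-0.52) and Tarsl2 (-0.57), the cytosolic genes that fell, lacked the word too. Of all 21 cytosolic enzyme genes 19 rose, with or without a window. Whether ATF4 or MYC had a part in these changes was not tested. The E-box CACGTG, a palindrome known for MYC, lay in 5 of the 31 members with a window (Aars, Ears2, Farsb, Iars and Tars). Among all windows 7.15% held it, or 8.09% of genes. A match describes letters in this window and not a bound site. To show the sequence itself, the stretch up to the start site that is outside every annotated exon is printed on the gene's strand for chosen genes. These are a gene with an E-box (Iars) and the gene whose TGATGNAA lies nearest before its start (Tars). On the gene's strand the Tars match reads TTGCATCA. The others are the member with the largest rise (Eef1e1) and the member with the largest fall (Tarsl2). Capitals mark the matches, and the Eef1e1 and Tarsl2 stretches hold 0 of either word.
Iars, from 160 to 31 bases before the start (chr13:49681970-49682099): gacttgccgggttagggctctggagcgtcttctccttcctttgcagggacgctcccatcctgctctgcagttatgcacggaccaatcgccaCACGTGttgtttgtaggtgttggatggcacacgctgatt
Tars, from 160 to 8 bases before the start (chr15:11399666-11399818): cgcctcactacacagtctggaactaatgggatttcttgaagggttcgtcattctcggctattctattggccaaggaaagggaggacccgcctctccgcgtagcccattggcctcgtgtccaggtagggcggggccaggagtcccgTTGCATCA
Eef1e1, from 160 to 31 bases before the start (chr13:38659059-38659188): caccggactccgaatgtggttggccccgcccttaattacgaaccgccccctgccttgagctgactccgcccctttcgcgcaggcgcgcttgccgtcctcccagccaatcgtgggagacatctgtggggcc
Tarsl2, from 160 to 1 base before the start (chr7:65644738-65644897): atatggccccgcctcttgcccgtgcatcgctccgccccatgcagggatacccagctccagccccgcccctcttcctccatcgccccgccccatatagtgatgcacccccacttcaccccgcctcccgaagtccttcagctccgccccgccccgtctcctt

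G and C made up 56.2% of the Iars stretch, 57.5% of that of Tars, 66.2% of that of Eef1e1 and 68.1% of that of Tarsl2. The other 10 members had no window in the table.

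Within the multisynthetase complex 7 of the 8 enzyme genes rose and Qars fell. Mars, the methionyl-tRNA synthetase gene (chr10:127296221-127311786), stood at 67.7, 69.1, 73.9, 69.0 and 64.4 CPM in the control libraries and at 110, 112, 109, 114 and 108 CPM in the siRNA libraries. The groups did not overlap, and Mars rose by 0.69 ± 0.0318 on the log2 scale (SE; adjusted p = 9.61e-23), the most among the complex enzymes. Exon bases of Mars are shared over 1.99% of their length with Ddit3 on the opposite strand, whose transcript rose by 0.91.

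Iars, for isoleucine (chr13:49682130-49734267), was at 91.6, 90.5, 89.1, 95.4 and 92.6 CPM in control and at 137, 138, 143, 140 and 154 CPM in siRNA libraries, a log2 rise of 0.63 ± 0.0304 (adjusted p = 3.01e-22). Rars, for arginine (chr11:35808381-35834528), went from 117, 108, 112, 117 and 110 CPM to 160, 173, 175, 165 and 177 CPM, or 0.59 ± 0.0295 (adjusted p = 1.42e-21). For both genes the lowest siRNA library was above the highest control library. Lars, for leucine, rose by 0.42, Eprs, which carries the glutamyl and prolyl activities in a single protein, by 0.36, and Dars, for aspartate, by 0.32. Kars, the lysyl-tRNA synthetase gene, which supplies both compartments, rose least, by 0.18 ± 0.0246 (adjusted p = 1.41e-08), from 157 ± 0.566 to 178 ± 3.11 CPM.

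Qars, the glutaminyl-tRNA synthetase gene (chr9:108508005-108515941), went the other way. It stood at 130, 128, 123, 121 and 120 CPM in control and at 83.1, 89.1, 88.6, 83.3 and 89.98 CPM in siRNA libraries, with no overlap between the groups. Its log2 change was -0.52 ± 0.0307 (adjusted p = 4.56e-19), a fall about as large as the rise of Tars (0.53). All of its counts were whole numbers, and none of its exon bases is shared with another annotated gene.

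Because 7 genes rose and Qars fell, the order of levels within the complex changed. Per kilobase of exon the control order was Kars (70.0 ± 0.252 CPM per kb), Rars (53.4 ± 1.95), Dars (49.1 ± 1.62), Qars (44.4 ± 1.63), Eprs (34.2 ± 1.05), Lars (24.1 ± 1.15), Mars (23.2 ± 1.15) and Iars (20.7 ± 0.541). Lars and Mars differed by less than their SDs in control. In siRNA libraries Rars (80.5 ± 3.31 CPM per kb) and Kars (79.4 ± 1.38) led and lay within each other's SD, while Lars, Iars and Qars formed the lower end at 32.2 ± 1.15, 32.2 ± 1.53 and 31.0 ± 1.199. Qars thus moved from rank 4 to rank 8, though its mean lay below that of Iars by less than the SD of Iars. As a share of the summed CPM of the 8 enzymes, Qars went from 13.2% ± 0.525 (12.7% to 13.9% over the control libraries) to 7.33% ± 0.145 (7.14% to 7.50% over the siRNA libraries), a ratio that the scaling of the libraries does not touch.

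**Figure D2:**
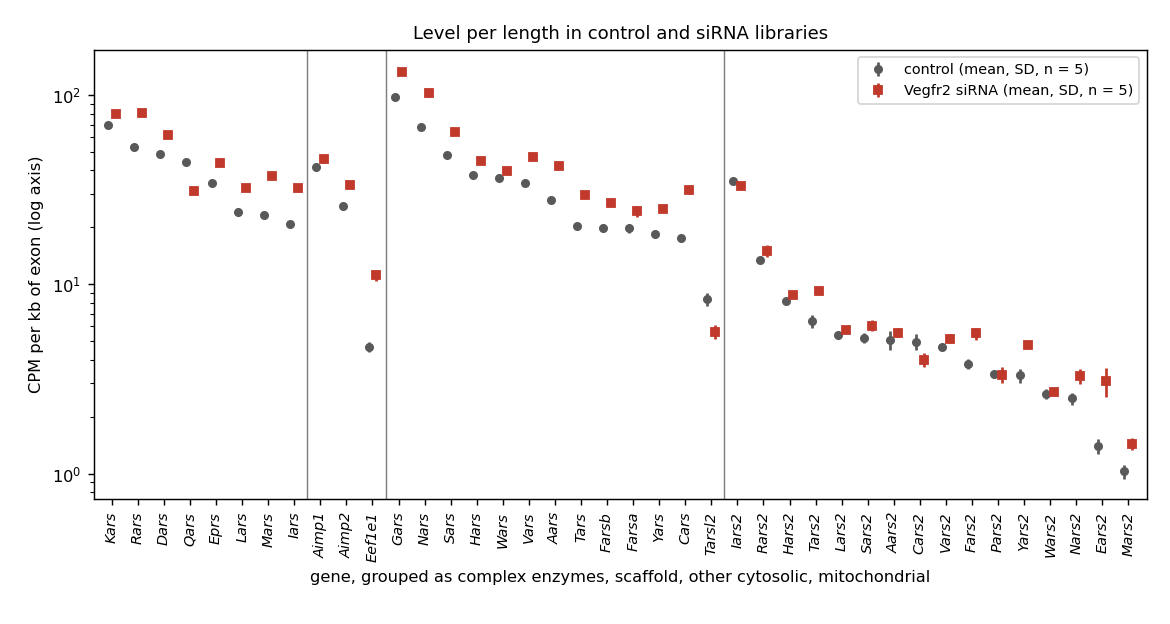
Mean level of each gene in CPM per kb of exon on a log axis, with the SD over 5 libraries, control as circles and Vegfr2 siRNA as squares; genes are grouped by role and ordered by control level. Qars, Tarsl2, Iars2 and Cars2 are the genes whose siRNA level was called lower, and Iars2 at 35.3 CPM per kb stands apart from the other mitochondrial genes in control.

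The 3 scaffold genes rose by unequal amounts. Eef1e1 (chr13:38645691-38659028), whose product is also known as AIMP3, stood at 12.0, 11.3, 11.6, 13.1 and 11.8 CPM in control and at 28.7, 28.2, 27.3, 26.7 and 31.5 CPM in siRNA libraries. On the log2 scale it rose by 1.254 ± 0.0569 (adjusted p = 4.72e-23), or 2.38-fold, the largest of all 41 members, and it passed the test for a fold above 1.5 (adjusted p = 3.73e-14). Even the highest control library was below each siRNA library by more than 10 CPM.

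Aimp2 (chr5:143902704-143909839) went from 30.3, 32.7, 28.8, 31.3 and 31.0 CPM to 39.2, 40.3, 38.9, 40.6 and 41.7 CPM, a rise of 0.38 ± 0.0418 (adjusted p = 7.45e-11). Exon bases over 29.4% of its length are shared with Eif2ak1 on the opposite strand, and the strand setting of the counting is not given in the sources used here. Aimp1 (chr3:132660498-132684390) stood at 47.6, 47.0, 47.3, 50.5 and 43.8 CPM in control and at 50.7, 48.9, 52.5, 54.5 and 51.3 CPM in siRNA libraries. Its groups overlapped, with control 4 above siRNA 2, and the log2 fold change was 0.13 ± 0.0387 (adjusted p = 0.00358). Per kilobase the control order was Aimp1 (42.0 CPM per kb), Aimp2 (25.8) and Eef1e1 (4.68), and in siRNA libraries it was the same at 45.8, 33.6 and 11.2.

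Among the other 13 cytosolic enzymes 12 rose and Tarsl2 fell. Cars, the cysteinyl-tRNA synthetase gene (chr7:143557230-143600090), was at 57.3, 54.8, 56.1, 60.2 and 55.1 CPM in control and at 98.9, 105, 103, 95.3 and 104 CPM in siRNA libraries. Its log2 fold change of 0.84 ± 0.0334 (adjusted p = 5.03e-25) was the largest of any cytosolic enzyme and passed the test for a fold above 1.5 (adjusted p = 6.18e-09). The lowest siRNA library lay far above the highest control library.

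Aars, for alanine (chr8:111027778-111055569), stood at 160, 159, 162, 165 and 156 CPM in control and at 239, 246, 244, 237 and 253 CPM in siRNA libraries, with a log2 fold change of 0.60 ± 0.0254 (adjusted p = 3.36e-24). Nars, for asparagine, went from 204, 189, 201, 199 and 196 CPM to 284, 301, 298, 297 and 317 CPM, or 0.60 ± 0.0270 (adjusted p = 4.45e-23). Neither gene's groups overlapped. Exon bases of Aars over 15.1% of its length are shared with other annotated genes, among them Exosc6 on the same strand.

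The remaining rises ran from 0.53 down to 0.13. Tars (threonine) rose by 0.53, Vars (valine) by 0.46, Gars (glycine) by 0.45, Yars (tyrosine) by 0.43 and Sars (serine) by 0.39 on the log2 scale, and none of their groups overlapped. The phenylalanyl-tRNA synthetase of the cytosol is built from the products of Farsa and Farsb in equal number, and these rose by 0.30 and 0.43. Per kilobase their levels were 19.85 and 19.97 CPM per kb in control and 24.4 and 26.9 CPM per kb in siRNA libraries. Hars (histidine) rose by 0.24 and Wars (tryptophan) by 0.13, the smallest rise among the cytosolic enzymes. Gars, which like Kars serves both compartments, had the highest level of all 41 members per length, at 97.3 CPM per kb in control and 133 CPM per kb in siRNA libraries. Without Kars and Gars 17 of 19 cytosolic genes rose and the median stayed at 0.43.

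Tarsl2 (chr7:65644898-65692093), the second cytosolic threonyl-tRNA synthetase gene, stood at 29.8, 24.4, 24.9, 26.8 and 27.3 CPM in control and at 18.8, 18.8, 19.4, 17.01 and 15.7 CPM in siRNA libraries. Its log2 fold change of -0.57 ± 0.0581 (adjusted p = 3.84e-11) was the largest fall of the 41 members, and the groups did not overlap. Tars, its main counterpart, rose in the same libraries, so these cytosolic genes for threonine moved in opposite directions. Tarsl2 was the cytosolic enzyme with the lowest level per length in control, at 8.34 CPM per kb against 20.4 CPM per kb for Tars.

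**Figure D3:**
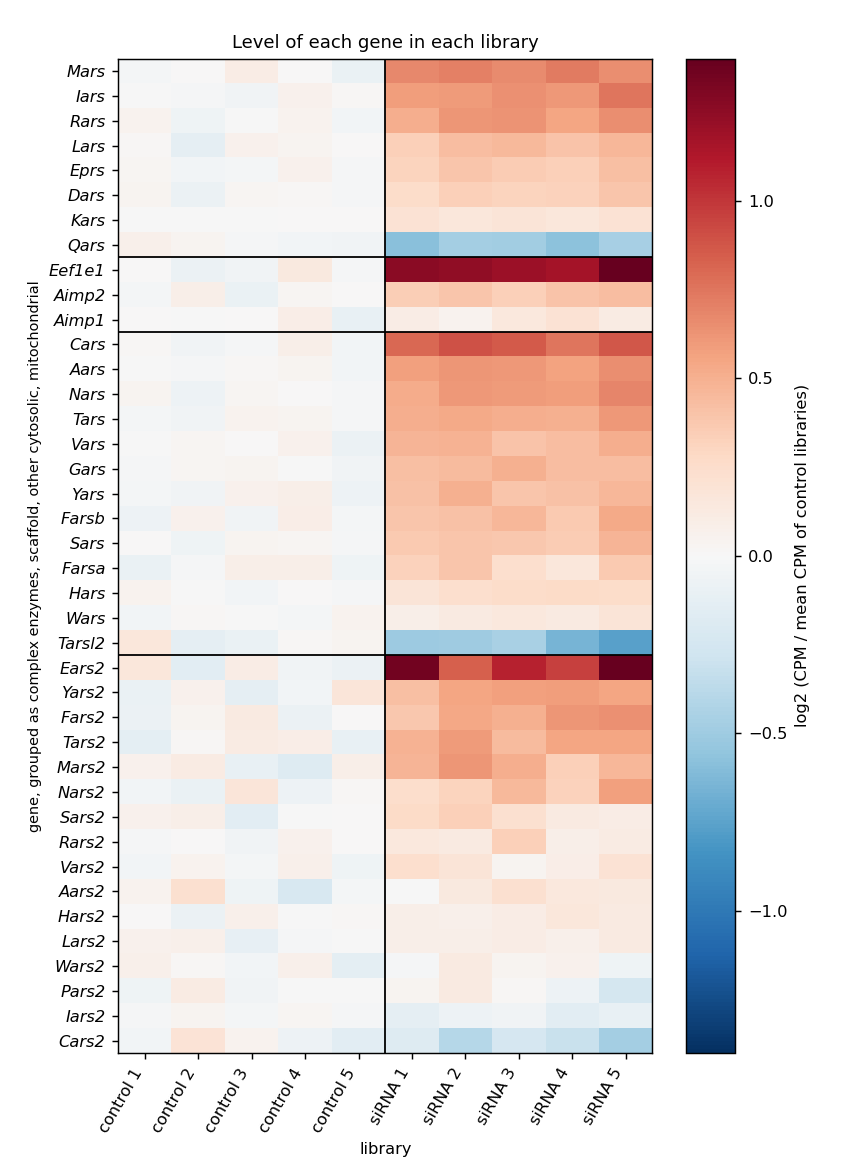
Level of each gene (rows, grouped by role) in each of the 10 libraries (columns) as log2 of its CPM over the mean of the control libraries, red for higher and blue for lower. The cytosolic rows lie above the control mean in all siRNA libraries apart from Qars and Tarsl2. Kars and Wars are pale, as are many mitochondrial rows.

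Calls among the mitochondrial enzymes went both ways, and several genes were not called. Ears2, for glutamate (chr7:122034162-122067094), rose most, from 3.19, 2.57, 3.06, 2.76 and 2.69 CPM to 7.27, 5.11, 6.04, 5.54 and 7.65 CPM, a log2 rise of 1.15 ± 0.118 (adjusted p = 1.28e-11). It passed the test for a fold above 1.5 (adjusted p = 3.99e-05), and its groups did not overlap, though it had the lowest level of the members and its counts were fractional in 3 libraries. In mitochondria glutaminyl-tRNA is made from glutamate that EARS2 has loaded, with an amidotransferase built from the products of Gatb, Gatc and Qrsl1, and no mitochondrial counterpart of Qars exists.

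Yars2 rose by 0.54, Fars2 by 0.54, Tars2 by 0.53, Mars2 by 0.48 and Nars2 by 0.39, the genes for tyrosine, phenylalanine, threonine, methionine and asparagine. Their siRNA libraries all lay above the control libraries. Fars2 shares 10.7% of its exon bases with Lyrm4 and Nrn1 on the opposite strand. Sars2 (0.22), Rars2 (0.16), Vars2 (0.15) and Hars2 (0.10) passed the threshold with small changes, and the groups of Vars2 and Hars2 overlapped. The call of Hars2 (adjusted p = 0.0320) was lost without control 2 (adjusted p = 0.0903), without siRNA 4 (0.0759) or without siRNA 5 (0.0543).

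For 5 mitochondrial genes no call was made. Aars2 stood at 17.7, 19.8, 16.3, 14.6 and 16.7 CPM in control and at 16.97, 18.6, 19.8, 18.8 and 18.8 CPM in siRNA libraries, with an interval of the log2 fold change from 0.0012 to 0.26 before adjustment (adjusted p = 0.0659). Lars2 was at 21.9, 22.2, 19.5, 20.8 and 21.0 CPM and at 22.3, 22.3, 22.7, 22.2 and 22.9 CPM (adjusted p = 0.0915), with control 2 just above siRNA 4. Aars2 was called higher without control 2 (adjusted p = 0.00597) or without siRNA 1 (0.0280), and Lars2 without control 2 (0.0488). Wars2 was at 12.3, 11.8, 11.4, 12.3 and 10.7 CPM in control and at 11.6, 12.8, 12.0, 12.2 and 11.2 CPM in siRNA libraries. Pars2 was at 9.84, 11.2, 9.95, 10.2 and 10.3 CPM and at 10.6, 11.2, 10.4, 9.82 and 8.70 CPM. The libraries of Wars2 and Pars2 were interleaved between the groups, and the intervals ran from -0.10 to 0.17 for Wars2 and from -0.17 to 0.13 for Pars2. Changes as large as those of Cars or Mars lie outside these intervals, whereas a change of the size seen for Kars lies inside those of Aars2 and Lars2.

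Cars2 and Iars2 fell. Cars2 (chr8:11514017-11550781) stood at 9.23, 10.8, 9.78, 9.0 and 8.58 CPM in control and at 8.38, 7.19, 8.07, 7.63 and 6.82 CPM in siRNA libraries, or a log2 change of -0.32 ± 0.0809 (adjusted p = 6.12e-04). The lowest control library and the highest siRNA library were 8.58 and 8.38 CPM, so the groups were barely apart. Iars2 (chr1:185286642-185329419) was at 233, 242, 231, 239 and 232 CPM in control and at 216, 224, 227, 213 and 219 CPM in siRNA libraries, or -0.10 ± 0.0249 (adjusted p = 5.98e-04). Its counts were fractional in all 10 libraries, and 24.2% of its exon bases are shared with Rab3gap2 and another gene on the opposite strand, so reads of Iars2 may have been divided with other genes.

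Iars2 made up 49.4% ± 0.422 of the summed mitochondrial CPM in control and 43.6% ± 0.420 in siRNA libraries. Without it the other 16 mitochondrial genes summed to 241 ± 5.61 CPM in control and 284 ± 2.82 CPM in siRNA libraries. Per kilobase Iars2 stood at 35.3 CPM per kb in control, above the next mitochondrial gene, Rars2, at 13.4 CPM per kb, and the median over the 17 genes was 4.77 CPM per kb against 34.2 over the cytosolic enzymes. The lowest value, 1.03 CPM per kb for Mars2, rests on a GENCODE exon of 11.3 kb, where RefSeq gives the whole gene 2882 bases.

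Set beside each other for the same amino acid, the cytosolic gene had the larger log2 fold change for 14 of the 17 mitochondrial genes, and the mitochondrial gene for 3 (Ears2, Fars2 and Yars2). Tars2 was counted against Tars, where the changes of 0.53 and 0.53 were nearly tied, and against Tarsl2 the mitochondrial change was the larger by 1.095. Both members of the pair rose for 10. Among these, Hars and Hars2 share exon bases with each other on opposite strands (7.97% of Hars and 4.56% of Hars2). The strand setting is not given, so their counts may not be fully separate. In control libraries the cytosolic gene had the higher level per length in 16 of the 17 pairs, with a median of 5.61 times and the exception of isoleucine, where Iars stood at 0.588 times Iars2. The count of 16 does not depend on the length taken for Mars2, since either length leaves it below Mars.

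The widest gap was in the cysteine pair. Cars2 amounted to 16.8% ± 1.92 of the CPM of Cars in control (14.9% to 19.8%) and to 7.54% ± 0.801 in siRNA libraries (6.59% to 8.47%), so the ratios did not overlap. Iars2 amounted to 257% ± 7.26 of Iars in control (250% to 268%) and to 155% ± 7.81 in siRNA libraries (142% to 162%). In the glutamate pair the ratio moved the other way, Ears2 going from 1.70% ± 0.148 of Eprs to 2.93% ± 0.503. For threonine the ratio of Tars2 to Tars was level at 33.9% ± 2.04 and 33.9% ± 1.41, while Tars2 went from 105% ± 14.96 to 225% ± 24.9 of Tarsl2. These within-library ratios are free of the scaling between libraries.

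**Figure D4:**
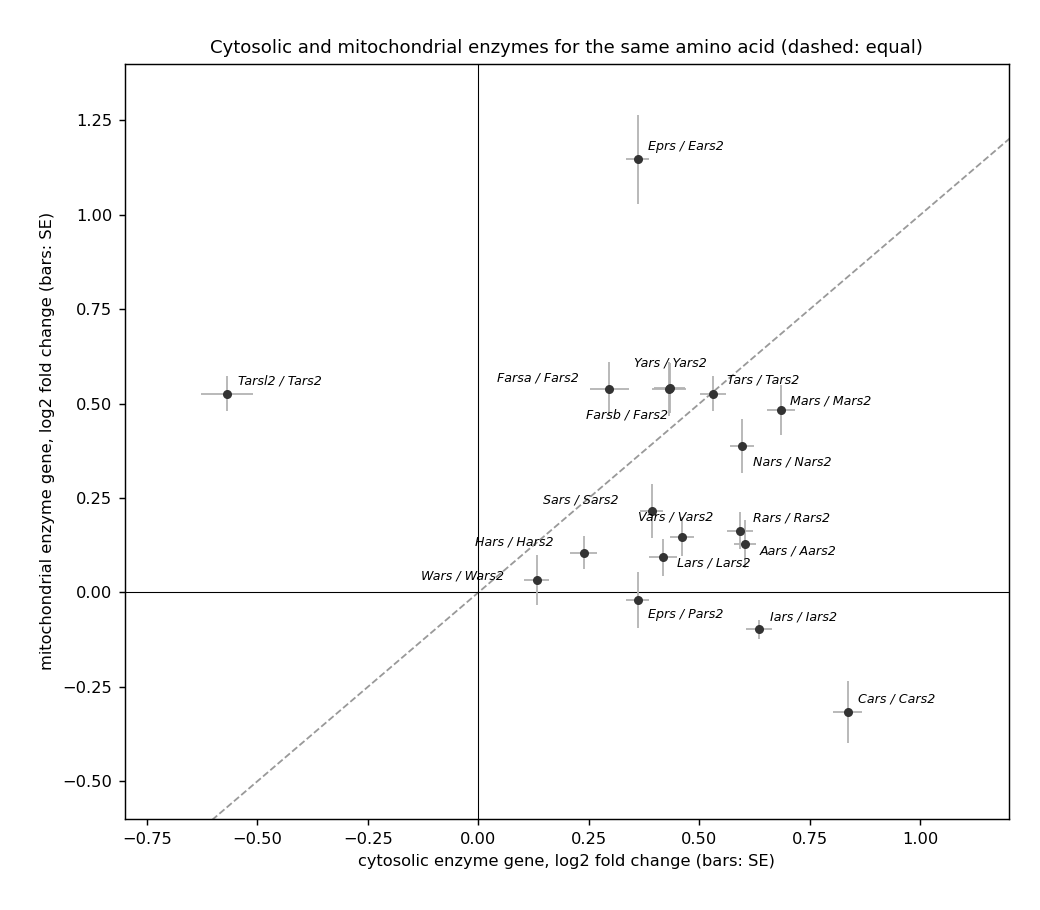
Log2 fold change of the mitochondrial gene (vertical) against that of the cytosolic gene for the same amino acid (horizontal), with SE bars and a dashed line where they are equal; Fars2 is drawn against both cytosolic subunits, Tars2 against Tars and Tarsl2, and Eprs stands for glutamate and proline. Most points lie right of 0 and below the dashed line, Ears2 lies far above it and Cars2 far below.

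Other genes around tRNA charging were counted from fixed lists, and each count is to be read against the 36.1% of all tested genes that rose and the 35.2% that fell. In a list of 29 tested genes of the GCN2 and ATF4 pathway, 25 rose, 2 fell and 2 were not called, with a median log2 fold change of 0.56. Stc2 of that list was under the filter. Atf4 itself went from between 126 and 143 CPM in control to between 243 and 270 CPM in siRNA libraries, a log2 rise of 0.91 (adjusted p = 1.97e-20). Eif2ak4, which encodes the sensor GCN2, was not called (-0.04, adjusted p = 0.320), and Gcn1, its activator, rose by 0.18. The members with the smallest p were Slc7a5 (1.63) and Slc3a2 (0.56), which together form an amino acid exchanger, Slc7a1 (0.83), a transporter of cationic amino acids, and Aldh18a1 (1.104), an enzyme of proline synthesis. The 2 that fell were Eif2ak3 (-0.15) and Cebpg (-0.07). Of 28 genes of this list with a RefSeq window, 8 held TGATGNAA. Myc rose from 71.4 to 99.8 CPM, or by 0.48 (adjusted p = 1.08e-16).

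Genes that make the tRNAs had lower medians than the GCN2 and ATF4 list. Of 22 genes of RNA polymerase III and its factors, which transcribe tRNA genes, 14 rose, 4 fell and 4 were not called, with a median of 0.19. The polymerase subunit genes Polr3d (1.02), Polr3e (0.62) and Crcp (0.50) and the factor gene Gtf3c4 (0.34) had the smallest p. Of 21 tested genes of tRNA maturation and export 11 rose, 2 fell and 8 were not called, with a median of 0.15. In that list Pop1 (0.53), of the enzyme that trims the 5′ end, Thg1l (0.56), which adds a guanylate to histidine tRNA, and Trnt1 (0.25), which adds the CCA end, rose, and the splicing endonuclease gene Tsen34 fell by 0.26.

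Partners that act beside the synthetases showed the smallest median. Of 13 genes of charging partners and proofreading 6 rose, 0 fell and 7 were not called, with a median of 0.08, and their share of rises was near that of all genes. Those that rose included Eefsec (0.31), which delivers selenocysteine tRNA, Pstk (0.31), a kinase of selenocysteine tRNA synthesis, and Mtfmt (0.30), which formylates the mitochondrial initiator. Pstk shares 58.8% of its exon bases with Ikzf5 on the opposite strand. Of the amidotransferase genes Qrsl1 rose by 0.22 (adjusted p = 0.00261), while Gatb and Gatc were not called. Of 9 elongation factor genes 5 rose, 2 fell and 2 were not called, with a median of 0.14. The cytosolic factor genes Eef2 (-0.26) and Eef1a1 (-0.16), whose product delivers charged tRNA to the ribosome, fell. Among the other cytosolic factor genes Eef1d (0.22) and Eef1g (0.15) rose and Eef1b2 was not called. The mitochondrial factor genes Gfm1 (0.36), Tsfm (0.45) and Tufm (0.14) rose, and Gfm2 was not called. Against these lists the medians of 0.39 for the 8 complex enzymes and 0.43 for the other 13 cytosolic enzymes lay between the GCN2 and ATF4 list and the remaining lists, and the mitochondrial enzymes at 0.15 lay among the latter.

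**Figure D5:**
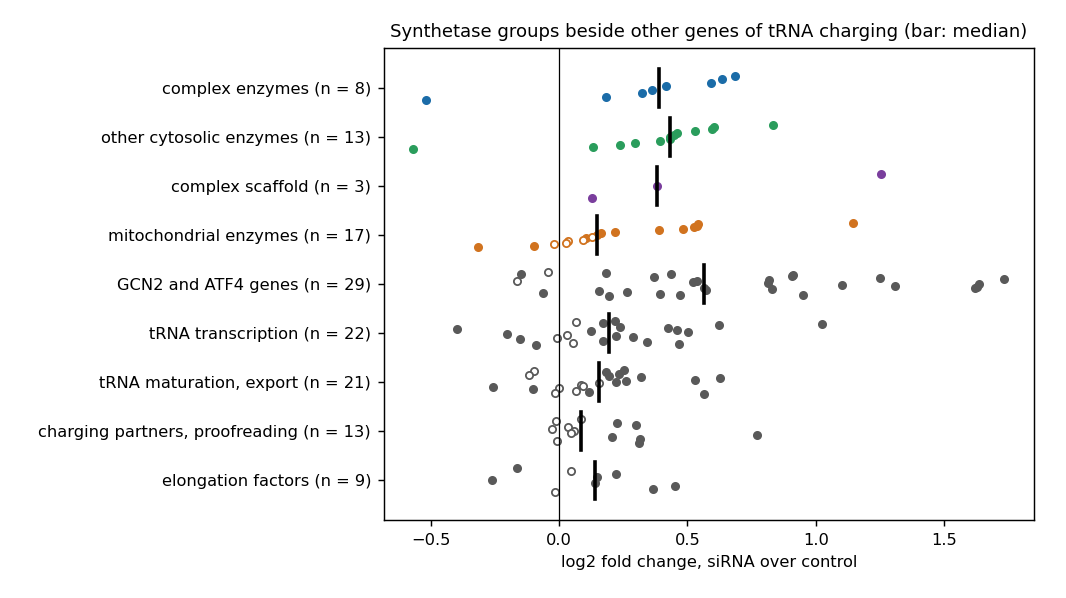
Log2 fold change, siRNA over control, of each tested gene in the 4 synthetase groups and in 5 lists of related genes, with a bar at each median and open points for genes that did not pass the threshold. The median of the GCN2 and ATF4 list is highest at 0.56, those of the cytosolic enzyme groups follow at 0.39 and 0.43, and the mitochondrial median of 0.15 is near those of the other lists.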

How the data were processed

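Polyadenylated RNA of 10 mouse primary lymphatic endothelial cell samples was sequenced. The authors deposited 1 table of expected counts, not normalized, with a gene ID and symbol for each of 16251 genes; in each library 10.5% to 11.3% of genes carry fractional values. HISAT2 2.2.1, Bowtie2 2.4.5, RSEM 1.3.1 and GRCm38.p6 are named, with no roles, per the submitters' processing notes. What annotation, strand setting or gene filter was used is not given in the sources used here. Reads that match several genes may be divided between them, and the p-values do not carry that uncertainty.

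Sample labels gave the groups, and column names gave the sample of each column. Counts were rounded to whole numbers and fitted over the whole table with edgeR 4.0.16 under R 4.3.3 (minimum count of 10 in filterByExpr, TMM factors, robust quasi-likelihood F test, Benjamini-Hochberg threshold 0.05), which left 12161 genes, with 4090 under the filter. The common biological coefficient of variation was 2.85%, so small changes pass the threshold. The members and lists were chosen with earlier results of these data known, so no list was tested as a set. Values in each library are given for the 8 members with the largest rise, for the 4 that fell (the rule allowed 6), for the scaffold genes and for members whose call differs from their group. Of each list the 4 genes with the smallest p are named, with Atf4, Myc, Kdr, Eif2ak4 and Gcn1. Acta2, Pdgfra, Pdgfrb, Notch3, Cebpg, Eif2ak3, Ddit3, Stc2, Gatb, Gatc and Qrsl1 were named after their values were seen. So were Eef1d, Eef1g, Eef1b2, Tufm and Gfm2. Levels per length use GENCODE M21 exons, and coordinates and promoter windows are from RefSeq on GRCm38.p6, in which 31 of 41 members matched by gene ID.

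Libraries of a group were farther apart than sampling noise allows (1.50 to 3.47 for chi-square over its degrees of freedom, in genes with at least 20 counts). None was therefore counted as a second sequencing run of another. Preparations of the same culture can also differ by more than this noise, so separate cultures are not shown. On simulated data for this comparison, with 200 of 12093 genes changed, the share recovered was 38% for a change of 1.1-fold, 84% for 1.25-fold, 94% for 1.5-fold and 100% for 2-fold, and 5 calls were false. The simulation gave every gene the same dispersion and changed far fewer genes than the 8668 called in the data. These shares therefore need not hold for the data. Alternatives were DESeq2 1.42.0, limma-voom (limma 3.58.1), RLE or upper-quartile factors, no filter or a mean of 5 CPM or more, glmTreat at a fold of 1.5, a block for the replicate number, each library left out, other readings of the compartments, and the cytosolic enzymes without Kars and Gars. Some genes and a sequence are not reported here by name and are left out of the plots that name genes. Tables and plots were made in Python 3.11.15.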

Additional observations from a re-analysis of the deposited data

Results flagged for a closer look

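In 4 of the 82 groups of 5 libraries (41 genes, each in control and in siRNA), a single library stood apart from the other 4 by Dixon's ratio above 0.71, where chance gives about 1 group in 20. Lars was at 88.18 CPM in control 2, below the other control libraries at 96.6 to 99.9 CPM. Rars2 was at 31.67 CPM in siRNA 3, above the others at 26.6 to 27.7 CPM. Sars was at 245.6 CPM in siRNA 5, above 226 to 230 CPM. Yars2 was at 13.96 CPM in siRNA 1, below 15.2 to 15.6 CPM. The 4 values come from different libraries, and each of the 4 genes kept its call with any single library left out.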

How the results depend on the processing

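Over 40 members and 18 alternatives, 676 of 719 values kept their direction and their side of the threshold, 37 lost the call, 4 gained it and 2 changed sign. Asking for a fold above 1.5 (glmTreat) by its construction made fewer calls: 1041 of all genes (447 higher, 594 lower), members 4 higher and 0 lower, cytosolic enzymes 2 and 0, mitochondrial enzymes 1 and 0. Outside that test Hars2 lost its call, with adjusted p = 0.0686 under upper-quartile factors, 0.0858 under DESeq2, 0.0903 without control 2, 0.0759 without siRNA 4 and 0.0543 without siRNA 5. Aars2 gained a call with no filter (0.0413), without control 2 (0.00597) and without siRNA 1 (0.0280), and Lars2 without control 2 (0.0488). The values that changed sign were those of Pars2, which was not called in any of these fits. It ranged from -0.0603 to 0.0298 with libraries left out (0.0129 without control 2, 0.0298 without siRNA 5). The cause was not tested. A mean of at least 5 CPM left Ears2 out of the fit. Counting symbols ending in 2 as mitochondrial left 1 cytosolic gene lower, since Tarsl2 moved to the other group. Leave-one-out counts of members were 31 to 33 higher and 4 lower, cytosolic enzymes 19 higher and 2 lower, and mitochondrial enzymes 9 to 11 higher and 2 lower. The medians then ran from 0.41 to 0.45 for cytosolic and from 0.12 to 0.17 for mitochondrial enzymes.

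Same-numbered libraries of the groups were not correlated in their deviations (r from -0.0745 to 0.0198). Deviations over all tested genes also hold counting noise, so this does not settle whether such libraries shared a culture or a batch. With the replicate number as a block 8537 of all genes were called, against 8668, and the members' counts were 32 higher and 4 lower; 0 of the 5 pairs correlated best with its own number. The median log2 fold change of all genes was farthest from 0 under upper-quartile factors, at -0.0181. Ears2, with 46.2 estimated counts in its lowest library, is the member whose precision depth limits most.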
